A study of Mus musculus with 6 samples.

Results

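The genes followed here are 10 regulators of the naive, quiescent state of T cells, chosen by symbol from the count table: *Tcf7*, *Lef1*, *Bach2*, *Foxp1*, *Foxo1*, *Klf2*, *Satb1*, *Ets1*, *Btg1* and *Tob1*. All 10 were found among the 78275 genes of the table, and all 10 were among the 16105 genes with enough counts to be tested. The rule uses the symbols alone and no measured value. The 10 symbols themselves were chosen with earlier results of these data known. The first 8 encode transcription factors or chromatin proteins, and the other two, *Btg1* and *Tob1*, encode antiproliferative proteins that do not bind DNA by themselves.

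TCRβhigh CD4-CD8+ T cells were sorted from 3 WT and 3 BIT mice, and the RNA of each mouse was sequenced as 1 library. In BIT mice both alleles of *Psmb8*, which encodes the immunoproteasome subunit β5i, carry the sequence of *Psmb11*, which encodes the thymoproteasome subunit β5t, so that cells that would make β5i make β5t. The allele was made in C57BL/6 mice, WT mice carry the unmodified *Psmb8* gene, and the labels list no treatment for either group. Several BIT lines were engineered for the study, which used line BIT #1-2 where it names no other, and the labels do not name the line of these mice. The labels state 9-10 weeks of age, male mice and a purity above 98% for both groups, and they name lymph nodes as the tissue in one field and lymph nodes with spleens in another. The comparison asks whether mature CD8+ T cells that developed with thymoproteasomes in place of immunoproteasomes carry a different RNA program, here for the factors of the naive state.

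Naive T cells are kept in a resting state by an active transcriptional program. TCF-1, encoded by *Tcf7*, and LEF-1 bind the same DNA motif and maintain T cell identity and the capacity for self-renewal, and BACH2 represses effector genes. FOXO1 is active when the PI3K-AKT pathway is quiet and drives genes such as *Klf2* and *Il7r*, and KLF2 in turn drives genes that let T cells leave and re-enter lymph nodes. FOXP1 restrains the response to IL-7 and to the T cell receptor, SATB1 organizes chromatin in thymocytes and T cells, ETS1 is required for survival and for *Il7r* expression, and BTG1 and TOB1 bring the CCR4-NOT deadenylase to mRNA, which shortens poly(A) tails.

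Before the values of these genes, 3 features of the libraries bear on them. *Psmb11* had 0 counts in each WT library and between 1226 and 1926 in BIT libraries, and *Psmb8* had between 8024 and 10790 counts in WT and between 59 and 73 in BIT libraries. The library labelled WT replicate 3 held 66626 counts of *Xist*, against 2 to 125 in the others. The same library held 0 counts of each of 4 genes of the Y chromosome, which goes against its label as male. For the genes followed here, fold changes are therefore also given without it. Replicate 3 of both genotypes stood apart on the first principal component (34.4% of the variance, scores of 54.6 and 28.6 against -36.5 to -3.31 for the other libraries). Libraries held between 37467678 and 52922675 counts.

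The 10 genes lie on 8 chromosomes and differ in build. On GRCm39 with the Gencode M39 annotation, *Foxp1* spans 597.4 kb of chromosome 6 (98902299 to 99499685, minus strand) and *Bach2* spans 347.4 kb of chromosome 4 (32238714 to 32586108, plus strand). *Klf2* is the most compact, with 2.8 kb on chromosome 8 (73072726 to 73075502, plus strand), followed by *Tob1* with 4.1 kb on chromosome 11 (94102258 to 94106334, plus strand) and *Btg1* with 5.8 kb on chromosome 10 (96452861 to 96458671, plus strand). *Tcf7* lies on chromosome 11 (52143107 to 52174619, minus strand), *Lef1* on chromosome 3 (130903919 to 131018005, plus strand), *Foxo1* on chromosome 3 (52175757 to 52260642, plus strand), *Satb1* on chromosome 17 (52043114 to 52140622, minus strand) and *Ets1* on chromosome 9 (32547517 to 32669116, plus strand). *Psmb8* also lies on chromosome 17, as *Satb1* does.

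The sequence before the start of transcription was taken from RefSeq (mouse build GRCm38.p6), where 9 of the 10 genes had 19 promoters between them. *Ets1* had no entry in the table. The promoters of *Klf2*, *Btg1* and *Tob1* are printed because these 3 genes have 1 listed start each, and because the first had the second largest fitted change of the 10 genes and the other two are the pair of antiproliferative genes. Each runs 5′ to 3′ over the 250 bases before the start, on the plus strand, at chr8:72318812-72319061 for *Klf2*, chr10:96616751-96617000 for *Btg1* and chr11:94211204-94211453 for *Tob1*. Capitals mark the GC box, GGGCGG on either strand, and in *Btg1* also 1 forkhead motif, GTAAACA, read on the other strand.
Klf2: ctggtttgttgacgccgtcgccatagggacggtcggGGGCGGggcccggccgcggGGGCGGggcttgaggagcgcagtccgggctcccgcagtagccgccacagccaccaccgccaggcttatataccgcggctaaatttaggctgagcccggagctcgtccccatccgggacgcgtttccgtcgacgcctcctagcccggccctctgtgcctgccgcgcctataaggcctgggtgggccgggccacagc
Btg1: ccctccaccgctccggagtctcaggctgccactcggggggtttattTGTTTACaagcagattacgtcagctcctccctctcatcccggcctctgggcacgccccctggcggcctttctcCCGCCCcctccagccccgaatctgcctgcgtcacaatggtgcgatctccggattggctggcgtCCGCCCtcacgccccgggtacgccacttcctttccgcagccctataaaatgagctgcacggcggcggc
Tob1: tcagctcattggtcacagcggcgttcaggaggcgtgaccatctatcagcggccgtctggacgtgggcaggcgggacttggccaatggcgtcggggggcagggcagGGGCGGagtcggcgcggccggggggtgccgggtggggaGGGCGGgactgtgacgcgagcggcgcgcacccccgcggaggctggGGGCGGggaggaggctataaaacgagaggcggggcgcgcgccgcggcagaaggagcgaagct
The GC box was found on either strand in 12 of the 19 promoters and in 8 of the 9 genes, while 32.7% of all 32851 promoters in the table hold it. This share is of promoters and not of genes, and some listed promoters of *Lef1* and of *Satb1* overlap each other. The median GC content was 60.8% in the 19 promoters and 52.4% in all. The forkhead motif GTAAACA was found in 1 of the 19 (3.17% of all promoters), the ETS motif CCGGAAG in 2, of *Bach2* and *Tcf7* (6.91% of all), and the TCF/LEF motif CTTTGAT in 0 (3.21% of all). A match of letters is a description and not a binding site.

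The RNA levels of the 10 genes were similar in WT and BIT mice. None passed an adjusted p of 0.05 by limma-voom with Benjamini-Hochberg adjustment (smallest adjusted p = 0.633), where 22 of the 16105 genes tested, or 0.137%, did. None passed an unadjusted p of 0.05, where 1380 genes, or 8.57%, did. *Ets1* (log2 fold change 0.23) and *Klf2* (0.18) had the largest values in the positive direction and *Lef1* (-0.08) in the negative direction, and 6 of the 10 values were positive and 4 negative. Their median was 0.04, beside 0.01 over all genes tested. The 95% confidence intervals of all 10 genes held 0, and all 10 lay within 1.5-fold, between 0.822-fold and 1.41-fold. Their standard errors were between 0.0803 and 0.146, below the median of 0.175 over all genes, with between 946 and 78777 counts per gene and library. No interval of this fit thus reached beyond these bounds, while smaller differences in either direction stayed within them. By edgeR and by DESeq2, 0 of the 10 genes were called as well, with 1 and 2 of them at an unadjusted p below 0.05. In bulk RNA, fewer cells of a type and less RNA per cell cannot be told apart.

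**Figure D1:**
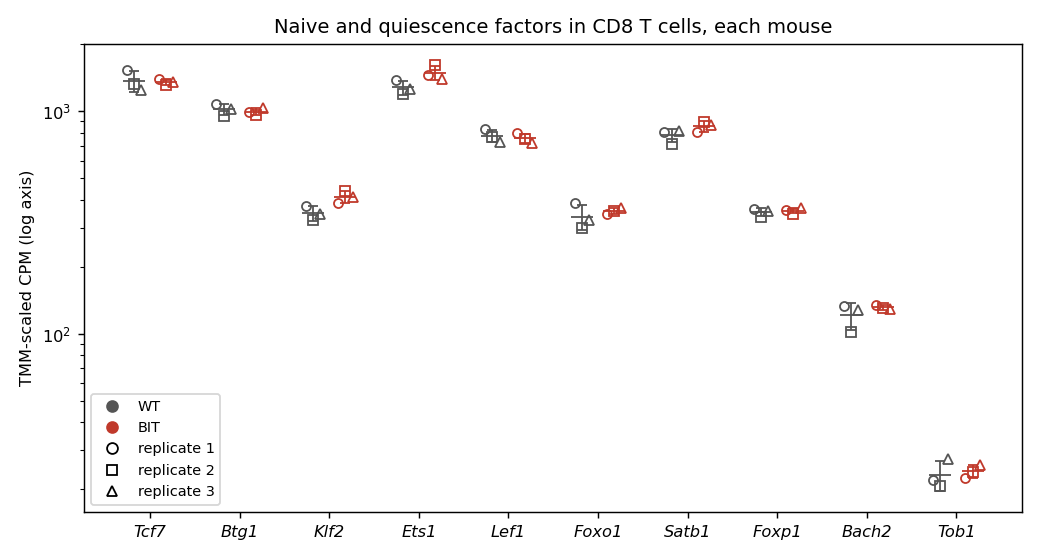
Level of each gene in every mouse, as TMM-scaled CPM on a log axis, with circles, squares and triangles for replicates 1, 2 and 3, grey for WT and red for BIT. Bars are the mean and SD of 3 mice, and grey and red points overlap in all genes but *Klf2* and *Ets1*, whose 3 BIT points lie above the 3 WT points.

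*Tcf7* and *Lef1* are the high mobility group factors of the TCF/LEF family. *Tcf7* was at 1530, 1330 and 1250 CPM in WT replicates 1, 2 and 3 and at 1400, 1310 and 1360 CPM in BIT replicates 1, 2 and 3, where CPM is the count scaled to the library total after TMM normalization. The BIT mice lay inside the range of the WT mice, and the log2 fold change was -0.01 (95% interval -0.25 to 0.22, adjusted p = 0.975 by limma-voom). *Lef1* was at 829, 768 and 729 CPM in WT and 795, 749 and 720 CPM in BIT mice. The groups overlapped, with the lowest BIT mouse just below the lowest WT mouse and a log2 fold change of -0.08 (95% interval -0.26 to 0.10, adjusted p = 0.8 by limma-voom). Of the 10 genes, *Lef1* had the smallest standard error, 0.0803. Without WT replicate 3, the log2 fold changes were 0.008 for *Tcf7*, with its sign reversed, and -0.044 for *Lef1*.

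*Bach2*, the repressor of effector genes, was at 133, 102 and 128 CPM in WT and 135, 130 and 129 CPM in BIT mice. WT replicate 2 lay below the other 5 mice, which were within a few CPM of each other, and the log2 fold change was 0.06 (95% interval -0.17 to 0.29). With a mouse left out it ran from -0.05 (without WT replicate 2) to 0.13 (without WT replicate 3). *Satb1* was at 807, 716 and 813 CPM in WT and 807, 896 and 864 CPM in BIT mice, again with WT replicate 2 lowest. Its log2 fold change was 0.09 (95% interval -0.20 to 0.39), and with a mouse left out it ran from -0.004 (without WT replicate 2) to 0.22 (without WT replicate 3).

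The forkhead genes *Foxp1* and *Foxo1* had near-equal means. *Foxp1* was at 364, 336 and 355 CPM in WT and 359, 347 and 367 CPM in BIT mice, and *Foxo1* at 385, 300 and 323 CPM in WT and 346, 358 and 368 CPM in BIT mice. The BIT values of *Foxo1* lay inside the WT range, whose highest and lowest mice were WT replicates 1 and 2. The log2 fold changes were -0.05 (95% interval -0.23 to 0.14) for *Foxp1* and 0.04 (95% interval -0.17 to 0.25) for *Foxo1*. The sign for *Foxp1* depended on the scaling, with 0.02 after TMM in place of quantile normalization. Without WT replicate 3, the log2 fold changes were -0.001 for *Foxp1* and 0.05 for *Foxo1*.

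*Klf2*, which acts downstream of FOXO1, was at 377, 323 and 347 CPM in WT and 388, 440 and 410 CPM in BIT mice. All 3 BIT mice were above all 3 WT mice on this scale, but the groups overlapped on the quantile-normalized log2 scale of the test. There the values were 8.50, 8.40 and 8.54 in WT and 8.52, 8.72 and 8.73 in BIT mice, with BIT replicate 1 below WT replicate 3. The fitted fold was 1.13 (95% interval 0.984 to 1.3), with an adjusted p of 0.633 by limma-voom and p = 0.2 in the exact permutation test, two-sided, whose smallest p is 0.1 for 3 mice against 3. With TMM normalization the log2 fold change was 0.23, with a 95% interval of 0.02 to 0.45 and an adjusted p of 0.586. In replicates 1 and 2 alone it was 0.18 (95% interval -0.06 to 0.42). With only WT replicate 3 left out it was 0.21 (95% interval -0.02 to 0.44, adjusted p = 0.452 by limma-voom).

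*Ets1* was at 1380, 1200 and 1260 CPM in WT and 1450, 1610 and 1400 CPM in BIT mice. The 3 BIT mice were above the 3 WT mice on this scale, with WT replicate 1 close to BIT replicate 3. On the quantile-normalized log2 scale, WT mice were at 10.35, 10.11 and 10.51 and BIT mice at 10.39, 10.65 and 10.61, and the groups overlapped. The fitted fold was 1.17 (95% interval 0.969 to 1.41), with an adjusted p of 0.645 by limma-voom and p = 0.2 in the exact permutation test, two-sided. The log2 fold change was 0.32 without WT replicate 3 (95% interval 0.05 to 0.59, adjusted p = 0.363) and 0.12 without WT replicate 2 (95% interval -0.12 to 0.36). In replicates 1 and 2 alone it was 0.29 (95% interval -0.01 to 0.60).

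Groups that do not overlap were common over all genes. On TMM-scaled CPM, 1022 of the genes tested (6.35%) had all BIT mice above all WT mice and 1033 (6.41%) had all below, and *Klf2* and *Ets1* made 2 of 10 above and 0 of 10 below. On the quantile-normalized scale, the shares over all genes were 7.38% above and 5.96% below, and the 10 genes had 0 in either direction. The exact permutation test, two-sided, gave p between 0.2 and 1 for the 10 genes.

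The antiproliferative genes *Btg1* and *Tob1* lay far apart in level, and neither differed between the genotypes beyond the spread between mice. *Btg1* was at 1080, 957 and 1020 CPM in WT and 997, 965 and 1030 CPM in BIT mice, with the BIT mice inside the WT range and a log2 fold change of -0.01 (95% interval -0.25 to 0.24). Without WT replicate 3, the log2 fold change of *Btg1* was 0.075. *Tob1* was at 21.9, 20.6 and 27.3 CPM in WT and 22.5, 23.9 and 25.8 CPM in BIT mice. Its highest and lowest libraries were both WT, and its log2 fold change of 0.05 had the widest interval of the 10 genes (-0.28 to 0.38). With a mouse left out it ran from -0.04 (without WT replicate 2) to 0.20 (without WT replicate 3), and it was negative in 3 of the 6 fits.

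**Figure D2:**
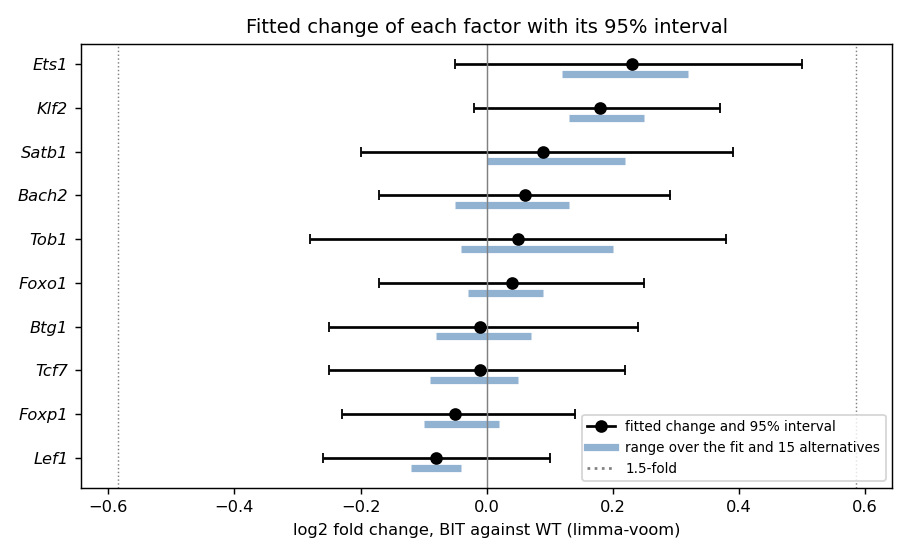
Log2 fold change of each gene in BIT against WT mice by limma-voom, with points and black bars for the fitted value and its 95% interval, and blue bars for the lowest to highest value over the fit and 15 alternatives. All black bars cross 0 and lie within the dotted lines at 1.5-fold, and the blue bars of *Ets1* and *Klf2* lie above 0 and that of *Lef1* below.

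Per kilobase of exon, *Tcf7* RNA was the most abundant of the 10 genes in these cells, at 356 ± 24.9 CPM per kb (mean ± SD, n = 6 mice). It was followed by *Btg1* (191 ± 8.3), *Klf2* (178 ± 19.7), *Ets1* (163 ± 17) and *Lef1* (81.9 ± 4.43), then by *Foxo1* (37.4 ± 3.34), *Satb1* (35.4 ± 2.66), *Foxp1* (21.9 ± 0.715), *Bach2* (12.6 ± 1.2) and *Tob1* (8.46 ± 0.906). The neighbours *Btg1* and *Klf2*, *Klf2* and *Ets1*, and *Foxo1* and *Satb1* overlapped in their ranges over the 6 mice, and the other neighbours did not. *Klf2* was nevertheless above *Ets1* within each of the 6 libraries, by 1.06 to 1.16 times. The order depended on the length used. With the longest transcript in place of all exon bases, 3 of the 10 genes kept their place, *Ets1* rose to 272 and *Lef1* to 208 CPM per kb, above *Btg1* (201) and *Klf2* (191).

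On the quantile-normalized scale most of the 10 genes moved together between mice of 1 genotype, with less agreement on TMM-scaled CPM. For 9 of the 10 genes, the largest quantile-normalized fold between 2 WT mice exceeded the fitted fold between BIT and WT mice. The exception was *Klf2* (1.1 against 1.13). The first measure is the most extreme pair of mice and the second compares group means, so the measures are unlike. On the quantile-normalized scale, all 10 genes were higher in WT replicate 1 than in WT replicate 2, by a median of 0.17 log2 units, and WT replicate 2 was the lowest of the 6 libraries for 8 of the 10 genes, also on TMM-scaled CPM. WT replicate 3 was above the mean of the 6 libraries for 9 genes on the quantile scale but for 4 on TMM-scaled CPM, and BIT replicate 3 for 10 and 8. Together the 10 genes took between 0.574% (WT replicate 2) and 0.721% (BIT replicate 3) of a library's counts. Without WT replicate 2, 2 of the 10 fold changes were positive in place of 6, and without WT replicate 3, 8 were.

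**Figure D3:**
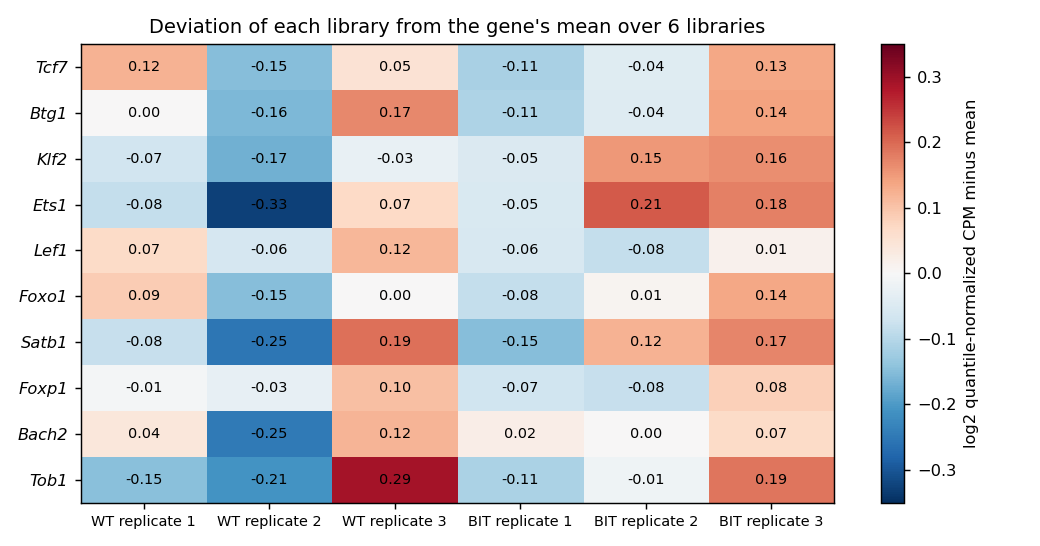
Log2 quantile-normalized CPM of each gene in each library minus the gene's mean over the 6 libraries, in red above and in blue below the mean. The column of WT replicate 2 is below the mean in all 10 genes and that of BIT replicate 3 above it in all 10.

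Over the 6 libraries, 44 of the 45 pairs of these genes had a positive Pearson correlation on the quantile-normalized scale (median 0.682, range -0.101 to 0.954). On TMM-scaled log2 CPM 39 of the 45 were positive (median 0.45, range -0.743 to 0.963). The points share library, depth and scaling and come from both genotypes. These are descriptions of 6 mice, and other sets of genes were not compared. Among 8281 other genes with a mean log2 CPM of at least 3, the profile most like the mean of the 10 genes was that of *Sipa1l3* (r = 0.997), followed by *Mcm3ap* (0.993), *Wdr26* (0.992), *Srebf2* (0.992) and *Dock8* (0.991). The profiles most like that of *Ets1*, the gene with the largest fold change, were those of *Tyk2* (r = 0.998), *Ric8a* (0.995), *Castor2* (0.994), *Tle3* (0.994) and *Ube2h* (0.992). Their log2 fold changes were between 0.02 and 0.31, and none passed an adjusted p of 0.05 by limma-voom.

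Replicate 3 stood apart in transcripts that overlap these genes on the same strand. Libraries were made from total RNA after removal of ribosomal RNA, so that unspliced RNA can enter them. It is counted only where an annotated transcript covers it, and its part in these transcripts was not tested. Of 32 genes whose annotated bodies overlap 1 of the 10, 15 had enough counts to be tested, and by limma-voom 0 passed an adjusted p of 0.05 and 0 an unadjusted p of 0.05 between genotypes (0 adjusted by edgeR and by DESeq2). On the strand of the overlapped gene 11 were tested, of which 10 lie wholly inside it. *Gm20696*, a protein-coding gene, reaches beyond *Foxp1*. Of the 11, 7 are of the class TEC, a Gencode class for transcripts that await experimental support. The ratio of replicate 3 to the mean of replicates 1 and 2 was above 1 for 10 of the 11 in WT (median 2.12, range 0.931 to 2.57) and for 11 of the 11 in BIT mice (median 1.8, range 1.15 to 2.83). The 10 regulators themselves had ratios of 0.874 to 1.29 in WT and 0.92 to 1.11 in BIT mice. The ratio of the transcript was above that of the gene it overlaps for 10 of the 11 in WT and for 11 of the 11 in BIT mice.

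*Satb1* holds 5 of these transcripts. *Gm36931*, with 3.25% of its bases in *Satb1* exons (chromosome 17, 52073671 to 52078471), was at 41.9, 47.8 and 88 CPM in WT and 41.1, 47.7 and 87.8 CPM in BIT mice. *C230085N15Rik*, with 0% of its bases in *Satb1* exons (chromosome 17, 52064323 to 52068649), was at 33.5, 34.7 and 80.1 CPM in WT and 35.8, 51.4 and 79.9 CPM in BIT mice. The replicate 3 libraries were the highest of their genotype for both, and the genotypes overlapped. *Gm42449* in *Lef1* (chromosome 3, 130930434 to 130932691) was at 11.9, 11.9 and 23.2 CPM in WT and 11.4, 14.9 and 21.4 CPM in BIT mice. *Gm38034* in *Foxo1* (chromosome 3, 52189662 to 52191730) was at 8.23, 7.95 and 20.8 CPM in WT and 9.69, 18.1 and 17.6 CPM in BIT mice, where BIT replicate 2 was also high.

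The same was seen outside these loci. Over all 911 TEC genes tested, the median ratio of replicate 3 to replicates 1 and 2 was 1.96 in WT and 1.88 in BIT mice, with 93.6% and 93.2% of the genes above 1, while over 11319 protein-coding genes the medians were 0.95 and 0.943. The part of unspliced RNA in the counts of the 10 genes was not tested. On the opposite strand, *Klf2* lies within *Eps15l1* (log2 fold change 0.05, standard error 0.0795, adjusted p = 0.868 by limma-voom), *Tcf7* overlaps *A630014C17Rik* (0.06) and *Lef1* overlaps *Lef1os1* (0.04). The library kit keeps the strand, but the strand setting of the counting is not given in the sources used here. *Eps15l1* had between 19.3% and 23.9% of the counts of *Klf2*.

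**Figure D4:**
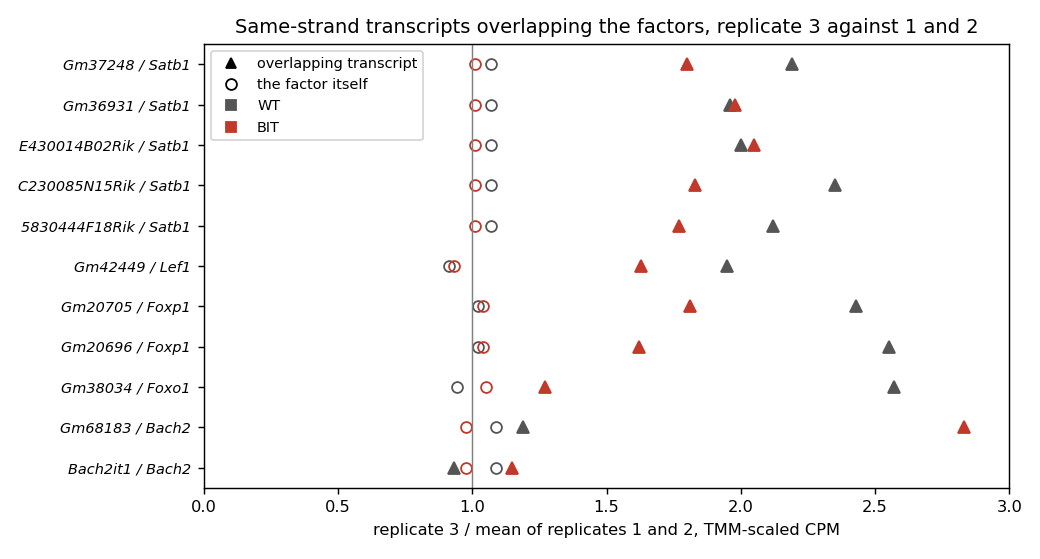
Ratio of replicate 3 to the mean of replicates 1 and 2, in TMM-scaled CPM, for the 11 tested same-strand transcripts that overlap the genes (triangles) and for the gene overlapped (open circles), in WT (grey) and BIT mice (red). The triangles have a median of 2.12 in WT and 1.8 in BIT mice, and the circles lie between 0.874 and 1.29.

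Genes of related lists were not called by limma-voom either, but a larger share of them than of all genes passed an unadjusted p of 0.05. In 7 lists of related genes, 100 entries were tested and 0 passed an adjusted p of 0.05 by limma-voom, where 0.137% of all genes did. At an unadjusted p below 0.05 by limma-voom, 13 entries had positive and 9 had negative fold changes. This is a larger share than the 8.57% of all genes that passed in either direction. Over the 100 entries, 50 fold changes were positive and 50 negative, where 52.3% of all genes were positive. The lists were chosen with earlier results of these data known, so these shares are descriptions. DESeq2 called 3 of the entries, *Il7r*, *Ccr9* and *Eomes*, and edgeR called 0.

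Of 30 family relatives, 25 were tested, with 10 positive and 15 negative fold changes and a median of -0.03 on the log2 scale. *Elk4*, an ETS factor, had the smallest unadjusted p of those with positive fold changes (0.24, standard error 0.0854, adjusted p = 0.535), at 407, 330 and 347 CPM in WT and 431, 482 and 415 CPM in BIT mice. *Klf4*, a KLF factor that restrains T cell proliferation, had that of those with negative ones (-1.50, standard error 0.528, adjusted p = 0.535), at 2.63, 2.65 and 5.56 CPM in WT and 0.666, 0.556 and 3.51 CPM in BIT mice. Both replicate 3 libraries were the highest of their genotype for *Klf4*, and it passed in replicates 1 and 2 alone (adjusted p = 0.0476).

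Among partners of TCF-1 and LEF-1, 9 of 10 were tested, with 8 positive and 1 negative fold changes and a median of 0.07. *Pygo2* had 0.34 (adjusted p = 0.531) and *Bcl9*, like it a coactivator of β-catenin, -0.17 (adjusted p = 0.716). The CCR4-NOT list, the deadenylase that BTG1 and TOB1 recruit, had 12 of 12 tested, 6 in each direction, and a median of 0.00. The poly(A) binding protein gene *Pabpc1* had 0.30 (adjusted p = 0.575) and *Cnot4* -0.23 (adjusted p = 0.649).

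In the list of regulators upstream of FOXO1, 10 of 11 had positive fold changes, with a median of 0.12. Of these, 3 passed an unadjusted p of 0.05. Over all genes, 52.3% had positive fold changes and 8.57% passed this threshold in either direction. The list was chosen with earlier results known, and its counts are descriptions. *Inpp5d*, the SHIP-1 phosphatase, had 0.25 (standard error 0.0851, adjusted p = 0.535), at 129, 106 and 121 CPM in WT and 145, 154 and 140 CPM in BIT mice. *Akt1* had the 1 negative value, -0.02 (adjusted p = 0.956). Among surface molecules of naive T cells and targets of these factors, 12 of 12 were tested, with 6 in each direction and a median of 0.00. *Il7r*, the IL-7 receptor gene that FOXO1 and ETS1 drive, had 0.54 (standard error 0.0941, adjusted p = 0.154), at 708, 612 and 648 CPM in WT and 1020, 955 and 983 CPM in BIT mice. *Ccr9*, a gut homing receptor, had -0.73 (standard error 0.136, adjusted p = 0.199), at 183, 197 and 137 CPM in WT and 120, 97.1 and 107 CPM in BIT mice. The groups did not overlap for either gene. On the quantile-normalized scale, 7.38% of all genes had all BIT mice above all WT mice and 5.96% had all below. Over 16 fits *Il7r* had adjusted p values between 1.29e-07 and 0.509 and *Ccr9* between 0.00194 and 0.902, and each passed 0.05 in 3 of them.

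Other regulators of quiescence had more negative than positive values. Of 18 tested, 12 had negative fold changes, 5 of them at an unadjusted p below 0.05, with a median of -0.10. Over all genes, 8.57% passed this threshold in either direction. *Mxd4*, an antagonist of MYC, had -0.33 (standard error 0.0841, adjusted p = 0.385), at 70.1, 58 and 58.7 CPM in WT and 51.6, 51.3 and 51.9 CPM in BIT mice. *Id3* had 0.41 (adjusted p = 0.551). Effector and memory factors had a median of -0.15 over 13 tested, 4 positive and 9 negative, with 2 in each direction at an unadjusted p below 0.05. These 4 were *Eomes*, *Tbx21*, *Irf4* and *Zeb2*. *Eomes* had 0.69 (standard error 0.114, adjusted p = 0.112), at 83.9, 76 and 93.9 CPM in WT and 141, 158 and 127 CPM in BIT mice, and passed in 4 of 16 fits. *Irf4*, an effector factor, had -0.53 (adjusted p = 0.508). *Tbx21* and *Zeb2*, named after their values were seen, had 0.75 (adjusted p = 0.538) and -1.30 (adjusted p = 0.575), and *Tbx21* passed in replicates 1 and 2 alone and without WT replicate 3.

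**Figure D5:**
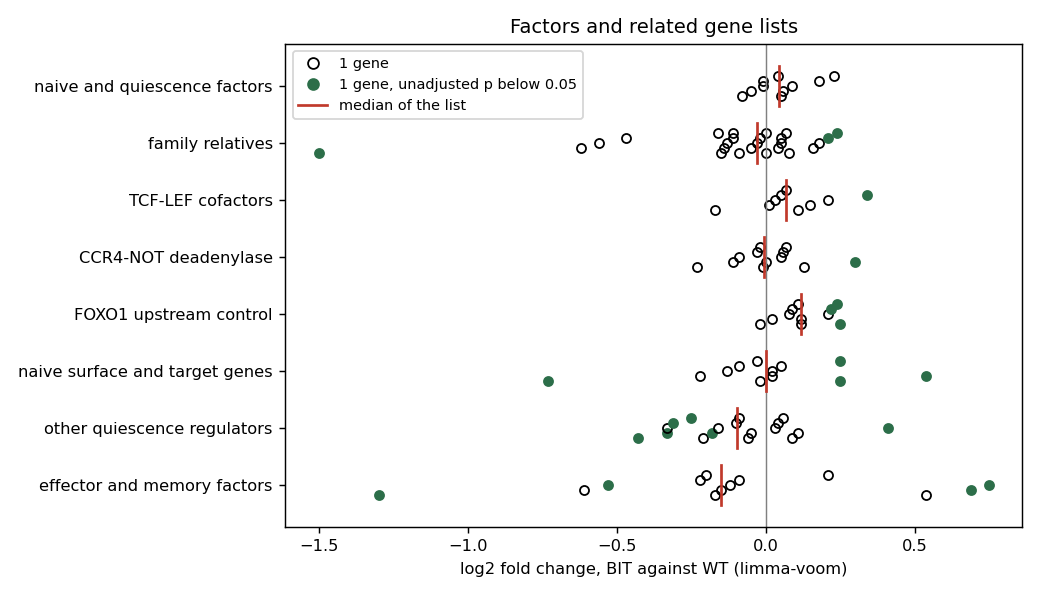
Log2 fold change in BIT against WT mice by limma-voom for the 10 genes and the 7 related lists, 1 circle per gene tested, filled green at an unadjusted p below 0.05, with a red line at the median of each list. The 10 genes lie between -0.08 and 0.23, while single genes of other lists reach from -1.50 to 0.75.

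Marker genes of other cells were low beside those of CD8 T cells. The summed CPM of 9 CD8 T cell markers was between 4380 and 5410 in the 6 libraries. Of their fold changes 4 were positive and 5 negative, with 2 of the negative ones at an unadjusted p below 0.05, beside 8.57% of all genes. B cells, which also express *Bach2*, *Foxo1*, *Foxp1*, *Ets1* and *Klf2*, had a marker sum of 27.7 to 42.3 CPM in WT and 22.4 to 31.7 CPM in BIT mice, with 6 of 6 fold changes negative and 0 at an unadjusted p below 0.05. Myeloid markers summed to 41.4 to 57.5 and 39.2 to 43.4 CPM, with 5 of 5 fold changes negative among those tested and 0 at an unadjusted p below 0.05. CD4 T cell, γδ T cell (2 of 4 markers found) and NK cell markers summed to at most 5.22 CPM. Markers of immature thymocytes, which express *Tcf7*, *Lef1* and *Satb1*, summed to 4.34 to 8.05 CPM in WT and 2.13 to 2.6 CPM in BIT mice. Almost all of it was *Dntt*, with *Rag2* at 0 counts and *Rag1* and *Ptcra* at 0 or 1 in each library. *Dntt*, the only 1 of them tested, had a log2 fold change of -1.38 (unadjusted p = 0.00175, adjusted p = 0.312 by limma-voom). All BIT mice were below all WT mice for it, as for 5.96% of all genes on the quantile-normalized scale. Erythroid markers summed to 1.17 to 11 CPM in WT and 4.74 to 35.7 CPM in BIT mice, with 4 of 4 fold changes positive and 0 at an unadjusted p below 0.05. The part of other cells in the values of the 10 genes was not tested.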

How the data were processed

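The data are 6 libraries of sorted CD8+ T cell RNA (3 WT mice, 3 BIT mice), grouped by the sample titles. The authors deposited 1 table of estimated counts, made with Cutadapt 1.18, STAR 2.7.0f on GRCm39 and RSEM 1.3.1 on Gencode M38 (versions from the submitters' processing notes). RSEM divides reads that match several genes, so counts need not be whole, and 84.8% of those above 0 were. They were rounded. Total counts were between 37467678 and 52922675, and a count of 0 allows up to 3 counts, for counting error only.

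Genes kept by filterByExpr of edgeR 4.0.16 were quantile-normalized and compared with limma 3.58.1 (voom, lmFit, eBayes) in R 4.3.3. The study names quantile normalization and limma-voom, while the filter, the genes tested and the threshold were chosen here. A gene was called at an adjusted p below 0.05, with Benjamini-Hochberg adjustment over all genes tested. Quantile normalization gives all libraries 1 distribution, so a shift of most genes at once would not be seen. Levels are CPM after TMM scaling. The alternatives changed the normalization (TMM), the test (DESeq2 1.42.0 or the quasi-likelihood test of edgeR), the filter (none, or a mean of 1 CPM or more), the weights of the libraries or the model (a block for replicate numbers, a term for replicate 3), or left out libraries (both of replicate 3, or each in turn). The normalizations, tests and library weights were tested on simulated counts, with changes larger than those fitted to the genes followed here. The other filters, the models with a replicate term and the fits without a library were not simulated.

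The 10 genes and the related lists were chosen with earlier results of these data known. Named from each list were genes called and the genes with the smallest unadjusted p in each direction, and besides these the 5 genes most like the mean profile and the 5 most like the gene with the largest fold change. Positions are from Gencode M39, which holds 78263 of the 78275 identifiers.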

Additional observations from a re-analysis of the deposited data

How the results depend on the processing

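None of the 10 genes was called in any of the 16 fits, while the number called over all genes moved from 22 to 14 with edgeR's quasi-likelihood test, 125 with DESeq2, 42 with a term for replicate 3, 71 in replicates 1 and 2 alone, and to a range of 1 to 37 with a mouse left out, lowest without WT replicate 1 and highest without WT replicate 3. At an unadjusted p below 0.05, *Klf2*, *Ets1* or both passed in 7 of the 15 alternatives. The signs of *Klf2*, *Ets1* and *Lef1* held in all 16 fits. *Foxp1* turned to 0.017 with TMM normalization, 0.017 with edgeR and 0.021 with DESeq2, *Foxo1* to -0.014 with sample quality weights and -0.009 in replicates 1 and 2 alone, and *Btg1* to 0.001 without the filter. With a mouse left out, signs also turned for *Tcf7* (-0.093 to 0.048), *Bach2* (-0.048 to 0.134), *Foxo1* (-0.025 to 0.094), *Satb1* (-0.004 to 0.221), *Btg1* (-0.084 to 0.075) and *Tob1* (-0.042 to 0.195), and the median of the 10 genes ran from -0.0451 (without WT replicate 2) to 0.105 (without WT replicate 3). Of the genes in the related lists, DESeq2 called 3, the fit without the filter 1, sample quality weights 1, the term for replicate 3 1, replicates 1 and 2 alone 4, and the fits with a mouse left out 0 to 3. With the longest transcript, 3 of 10 genes kept their place in the order of levels. The causes of these differences were not tested.

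With the replicate number as a block, 21 genes were called over all genes and 0 of the 10. Deviations of same-numbered mice correlated at 0.139, 0.0255 and 0.332, and WT replicate 2 was closest to BIT replicate 1. The highest of these values was that of the replicate 3 libraries, which also stood apart on the first principal component. The labels give no shared litter or day, so what same-numbered mice share is not known. With 3 mice per genotype, the interval of each gene gives the range of changes that the fit to all libraries allows. That range depended on the libraries kept. The *Ets1* interval reached 0.6 on the log2 scale, beyond 1.5-fold, without BIT replicate 1 and in replicates 1 and 2 alone. It reached 0.59, also beyond 1.5-fold, without WT replicate 1 and without WT replicate 3.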
